A study of Capra hircus with 13 samples.

Results

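The genes described here were expressed in goat embryos of the 8-cell stage after injection of a negative control (NC) siRNA and were below 1 FPKM after injection of *YTHDF2* siRNA. Members were chosen by these FPKM values themselves, as the gene names listed once with at least 5 FPKM in both NC libraries and below 1 FPKM in both knockdown libraries. FPKM is a level that corrects fragment counts for the length of a gene and the depth of the library. *IFI6*, *GPX2* and the names of zinc finger, solute carrier, ribosomal, mitochondrial ribosomal and NADH dehydrogenase families starting with ZNF, SLC, RPL, RPS, MRP or NDUF were left out. The rule found 18 members among 27121 names, and 2 further names that met both limits, *IFI6* and *MRPL30*, were left out by name. All members matched RefSeq, 15 as protein coding genes and 3 as lncRNAs, and 12 had a gene symbol.

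The study asked whether the m6A reader YTHDF2 takes part in the clearance of maternal mRNAs and in embryo development in goat (Capra hircus). It holds 13 libraries. Of these, 3 were of untreated mature MII oocytes, arrested in meiosis before fertilization, 3 of untreated 4-cell and 3 of untreated 8-cell embryos. NC siRNA was injected in 2 libraries of 8-cell embryos and *YTHDF2* siRNA in the other 2. The injected embryos were made by in vitro fertilization (IVF), received siRNA in the cytoplasm of the zygote at 8 h post-IVF (20 µM for *YTHDF2* siRNA), and were lysed in pools, so a library is a pool of embryos and not 1 animal. The control for both groups of injected embryos is thus an injection, and the knockdown lowers the mRNA without removing the gene. The untreated libraries came from previous studies of the same group. Nothing states that libraries of a group came from separate fertilizations or donors, so p-values measure the spread between these libraries, which may be technical.

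YTHDF2 is a cytoplasmic protein that binds mRNAs carrying N6-methyladenosine and brings them to deadenylases and decapping enzymes. Maternal mRNAs, made in the growing oocyte, are removed in waves while the embryo starts its own transcription, which in goat takes place around the 4- to 8-cell stage. An mRNA that YTHDF2 helps to clear is expected to be higher, not lower, when YTHDF2 is missing, and the genes described here were selected for the opposite direction.

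The mixture of siRNAs used for the knockdown is shown because it defines the treated group. The antisense strands, 5′ to 3′, with the seed (bases 2 to 8) in capitals, are:
siRNA 1: uUGCUAGCaauaucagcccaa
siRNA 2: uGGUCUAUaguauucaugcca
The level of *YTHDF2* was 111.54 and 158.61 FPKM in the NC libraries and 8.07 and 4.47 FPKM in the knockdown libraries. The groups did not overlap (log2 fold change −4.25 ± 0.43 (SE), adjusted p = 0.00037, limma with Benjamini-Hochberg adjustment, n = 2 against 2). In the untreated 8-cell libraries *YTHDF2* had 10.8, 16.7 and 12.5 FPKM, closer to the knockdown than to the NC embryos.

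Within groups, log2 values of the libraries had correlations across genes of 0.947 for NC, 0.951 for the knockdown and 0.946 to 0.978 for MII and 4-cell libraries. Replicate 1 of the untreated 8-cell libraries stood apart, with 0.854 and 0.898 to the other two against 0.966 between those. The untreated values step by whole fragments, which gave library depths of 0.785 to 1.24 times that of MII replicate 1. The depth of the injected libraries is unknown, because their values are rounded to 2 decimals and gave no such steps, and no interval of counting error can be given for them. In pooled embryos, fewer cells of a type and less RNA per cell cannot be told apart.

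The limits that chose the members left them in a narrow band of moderate levels. Their NC means ranged from 5.85 to 17.7 FPKM with a median of 8.18, and their knockdown means from 0 to 0.755 FPKM with a median of 0.485. Of the 15 members above 0 in a knockdown library, the lower NC value was 6.24 to 19.9 times the higher knockdown value. *CTSS*, *AIF1* and *LOC106504012* were listed at 0 in both knockdown libraries. The calling rule (limma, p under 0.05 before adjustment and over 2-fold) named 15.3% of the 11004 genes tested as decreased in the knockdown, 5.92% by adjusted p. The same contrast chose the members, which fixes its outcome for them, so their values are a description and no test of the members is given. The rule kept 20 names of the 5706 with at least 5 FPKM in both NC libraries before names were left out (0.351%), and the mirror image of the rule, below 1 FPKM in NC and at least 5 in the knockdown, was met by 2 names, *CCDC172* and *LOC102174479*.

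**Figure D1:**
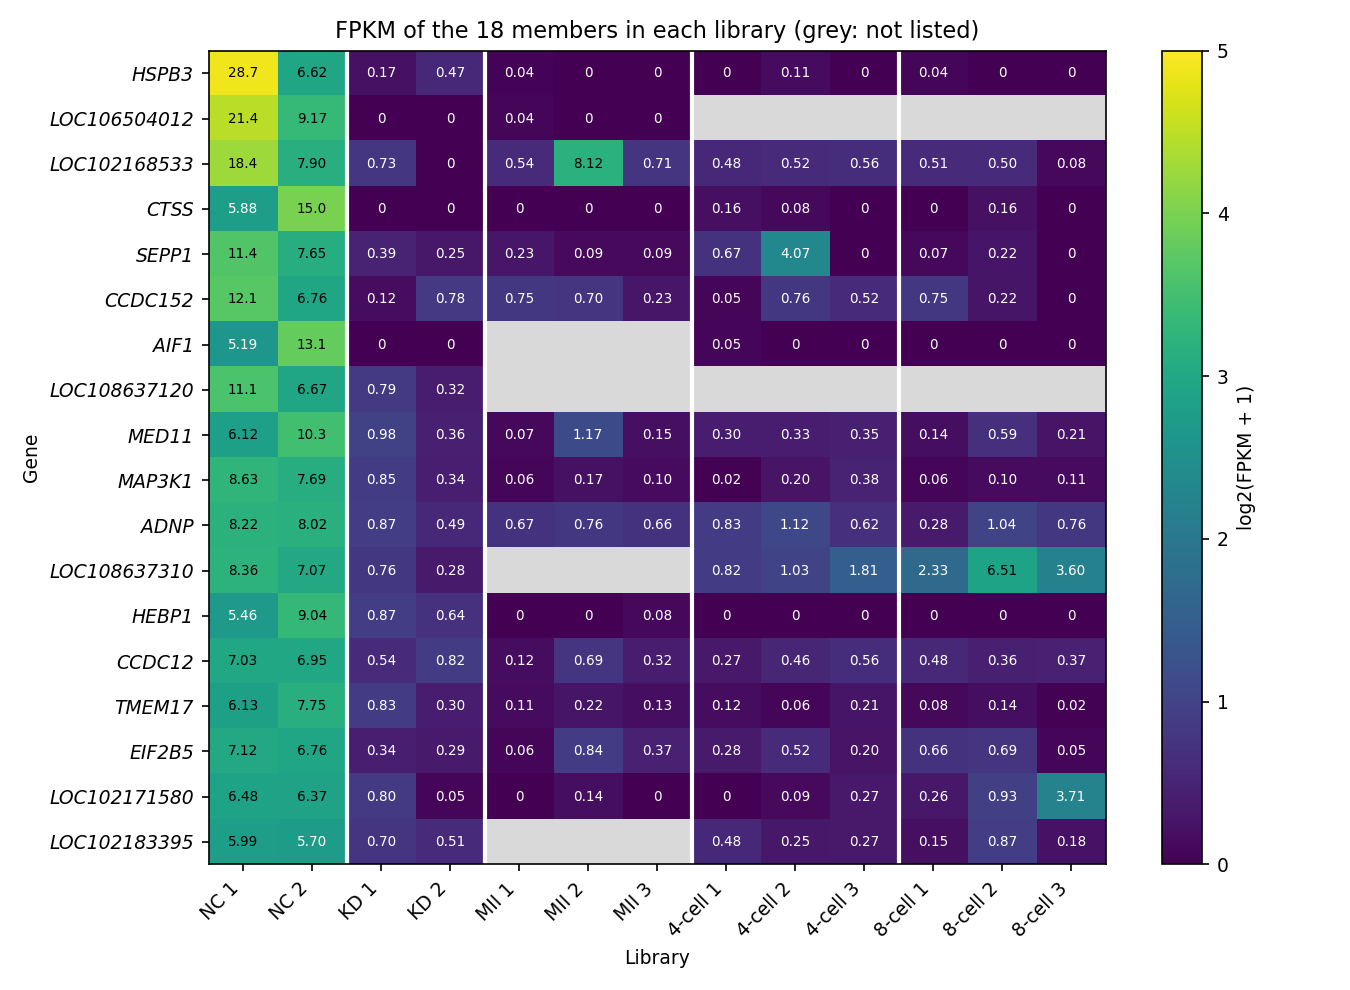
Heatmap of the 18 members (rows, ordered by NC mean) in the 13 libraries (columns), with the FPKM written in each cell and color for log2(FPKM + 1); KD, *YTHDF2* knockdown; grey, not listed in that table. The NC columns stand out from the knockdown columns, as the rule requires, and most cells of the untreated libraries are below 1 FPKM.

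The members just inside and just outside the limits were close in level. *AIF1*, *HEBP1* and *LOC102183395* had the lowest NC values of any member, 5.19, 5.46 and 5.70 FPKM. *MED11*, *ADNP* and *HEBP1* had the highest knockdown values, 0.98, 0.87 and 0.87 FPKM. Just outside, *LOC102169845*, *LOC102180185* and *FCER1G* missed the NC limit at 4.88, 4.75 and 4.75 FPKM, and *CHID1* and *CAPG* missed the knockdown limit at 1.04 and 1.05 FPKM.

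The untreated libraries were not used by the rule, and there the members were low too. Of the 18 members, 16 are listed in the tables of untreated embryos, and 14 of these 16 (87.5%) had a mean below 1 FPKM in untreated 8-cell embryos. The same held for 10.5% of the 5645 other names with at least 5 FPKM in both NC libraries, and for 13.4% of the 2225 other names whose NC mean lay in the range of the members. The median level of the members was 0.317 FPKM in untreated 8-cell embryos and 8.14 FPKM in NC embryos, while the other names with at least 5 FPKM in NC had medians of 16.3 and 23.2 FPKM. All 16 were lower in each untreated 8-cell library than in either NC library, as were 50.1% of those other names. The NC values in this comparison are those that the rule required to be at least 5 FPKM, and the other names carry no limit in the knockdown, so the shares are a description and nothing is drawn from their difference. Untreated and injected libraries were normalized apart and come from separate experiments, so no test was made across them, and experiment and injection cannot be told apart.

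**Figure D2:**
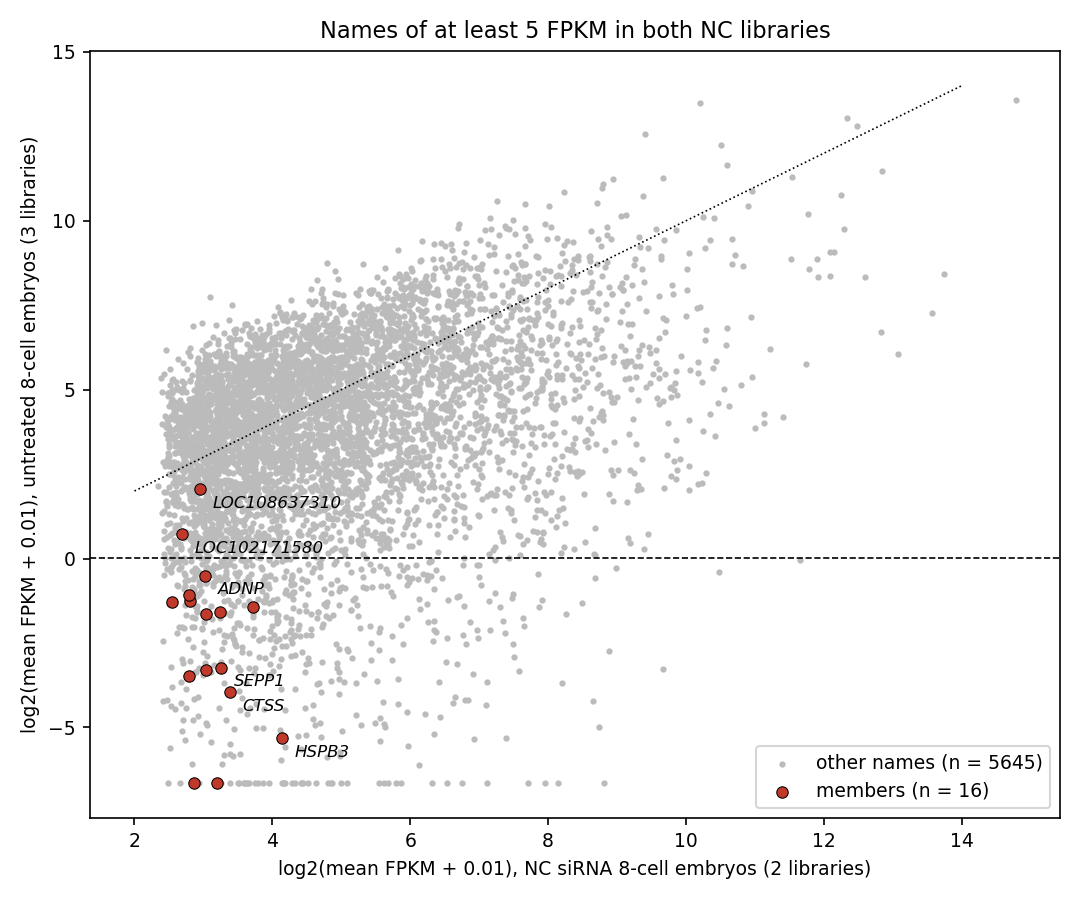
Mean level in NC embryos (x axis, 2 libraries) against untreated 8-cell embryos (y axis, 3 libraries), both as log2(FPKM + 0.01), for names with at least 5 FPKM in both NC libraries. Red points are the 16 listed members, grey points the 5645 other names, the dashed line is 1 FPKM and the dotted line equal levels; 14 of the 16 members lie below the dashed line.

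The stages before the 8-cell stage gave the same picture. Of the 14 members listed for MII oocytes, 13 had a mean below 1 FPKM (92.9%, against 12.6% of the other names with at least 5 FPKM in NC), and of 16 listed for 4-cell embryos, 14 did (87.5%, against 13.3%). No member had a mean of 5 FPKM or more at any of the 3 stages. Of those other names, 69.4% did in MII oocytes, 70.2% in 4-cell and 73.1% in 8-cell embryos. The other names carry no limit in the knockdown, so these shares too are a description. In 11 of the 17 members listed in any untreated table, every library was below 1 FPKM, a count for which no share over other names was taken. Among the 13 members listed in all 3 tables, the stage with the highest mean was MII for 5, the 4-cell stage for 6 and the 8-cell stage for 2. Some of these places rest on 1 library: *HEBP1* on 0.08 FPKM in MII replicate 3, *HSPB3* on 0.11 FPKM in 4-cell replicate 2 and *MED11* on 1.17 FPKM in MII replicate 2. Most of the means are near 0 and no share over other names was taken, so no stage pattern is read from the count.

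Fragments behind these low values could be recovered for 14 members, as the smallest whole numbers that give the observed steps. Over the 3 untreated 8-cell libraries, *ADNP* had 68, 257 and 207 fragments, *EIF2B5* 49, 52 and 4, *CTSS* 0, 2 and 0, and *HSPB3* 2, 0 and 0. These numbers are lower bounds, so the low level of *ADNP* rested on at least 68 fragments in each of these libraries, while for *CTSS* and *HSPB3* the true numbers may be larger than those given. Another 3 members, *AIF1*, *HEBP1* and *LOC106504012*, were above 0 in 1 untreated library each, so the worth of 1 fragment is not known for them.

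Few members could be tested between stages. One limma fit of log2(FPKM + 1) over the 9 untreated libraries was limited to genes averaging 1 FPKM or more, and 1 of the 13 members listed in all 3 tables, *LOC102168533*, passed this filter, through its value in MII replicate 2 alone. It was not called in any of the 3 contrasts (lowest unadjusted p = 0.093, limma). Nothing is read from this, since the library where it was high brought it into the test. Over all 9090 genes, the calling rule named 6.06% as decreased and 16.7% as increased from MII to the 4-cell stage, 8.14% and 19.8% from MII to the 8-cell stage, and 4.28% and 4.55% from the 4- to the 8-cell stage. Without the filter all 13 were tested, and 12 were not called in any contrast, against calls for 3.2% of names as decreased and 8.48% as increased, 4.28% and 10.5%, and 2.18% and 2.43% in the same order. The median difference over the 13 was 0.03 on the log2 scale from MII to the 4-cell and −0.03 from MII to the 8-cell stage, against 0.02 and 0.09 over the 17918 names tested. Near 0 the pseudocount of 1 compresses differences, so that these tests could show little.

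The best known functions among the members fall into translation and transcription, signaling, the cilium, selenium and heme handling, and macrophages. Each is described with its partners, which were listed after the members were known, so their counts are descriptions.

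*EIF2B5* encodes the epsilon subunit of eIF2B, the catalytic subunit of the exchange factor that reloads eIF2 with GTP and so sets the rate of translation initiation. It had 7.12 and 6.76 FPKM in NC and 0.34 and 0.29 FPKM in the knockdown libraries. Untreated levels were 0.06, 0.84 and 0.37 FPKM in MII oocytes, 0.28, 0.52 and 0.20 in 4-cell and 0.66, 0.69 and 0.05 in 8-cell embryos. NC and knockdown replicates were each close to one another, and every untreated library was below both NC libraries. In the other subunits, *EIF2B1* to *EIF2B4*, both NC libraries were above both knockdown libraries, as in 19.4% of all names, including names at 0 in NC that cannot meet this. *EIF2B2* and *EIF2B3* passed the calling rule for a decrease, as 15.3% of all genes tested did, and none of the 4 an adjusted p of 0.05. *EIF2B2* had 25.05 and 23.23 FPKM against 13.60 and 5.54 (log2 fold change −1.36 ± 0.46 (SE), adjusted p = 0.079, limma), and *EIF2B3* had 9.31 and 13.06 against 4.57 and 3.99. *EIF2B1*, at 33.75 and 37.01 against 23.16 and 27.76 FPKM, was not called. Unlike *EIF2B5*, it was well expressed in untreated 8-cell embryos, at 34.5, 21.3 and 40.7 FPKM. Of the eIF2 subunits, the substrate of eIF2B, *EIF2S1* fell from 32.01 and 40.17 to 8.56 and 14.48 FPKM (adjusted p = 0.037, limma), *EIF2S2* passed the calling rule alone (adjusted p = 0.083, limma) and *EIF2S3* was not called.

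**Figure D3:**
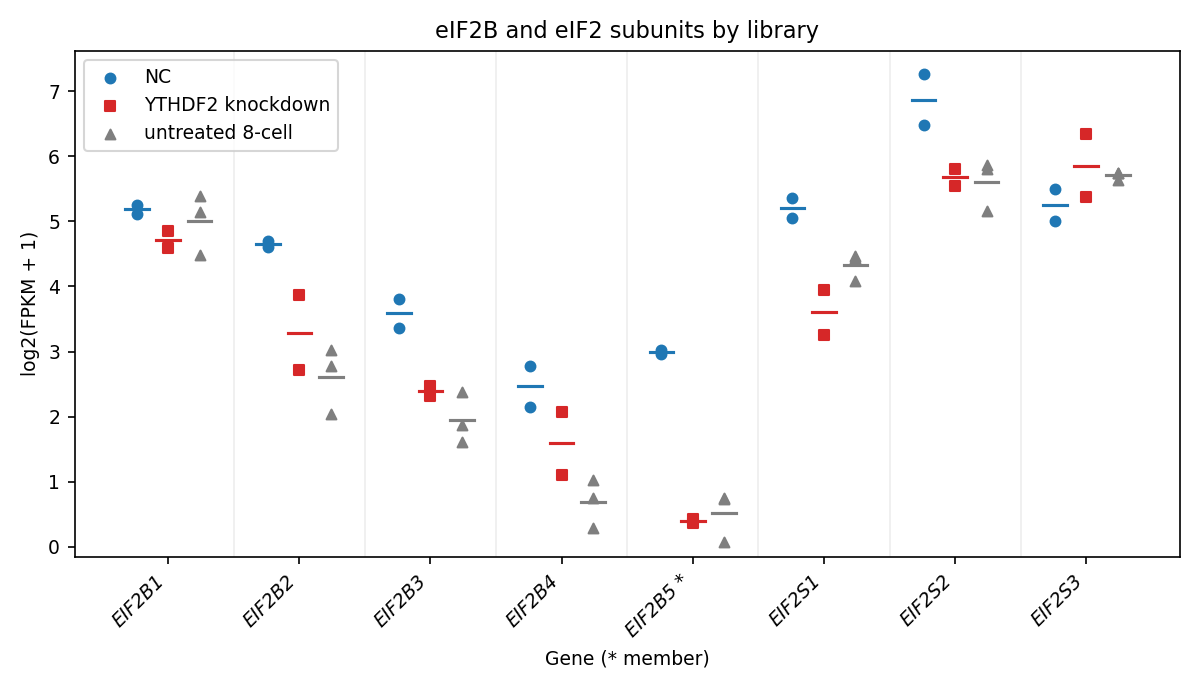
Levels of the eIF2B and eIF2 subunits as log2(FPKM + 1) in NC (circles), *YTHDF2* knockdown (squares) and untreated 8-cell (triangles) libraries; each point is 1 library and each bar the mean. *EIF2B5*, marked as a member, is the subunit below 1 FPKM in all knockdown and untreated 8-cell libraries, while *EIF2B1* stays above 20 FPKM in each.

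*MED11* encodes a subunit of the head module of Mediator, the complex that links transcription factors to RNA polymerase II. It had 6.12 and 10.28 FPKM in NC and 0.98 and 0.36 FPKM in the knockdown libraries. Among untreated libraries MII replicate 2 was highest, at 1.17 FPKM, and the 8-cell libraries had 0.14, 0.59 and 0.21 FPKM. No untreated library thus reached the lower NC value. Of 29 other Mediator genes tested in the knockdown, 7 were called decreased and 2 increased, against 15.3% and 9.48% of all genes tested. Among head module genes, *MED8* (adjusted p = 0.073, limma) had 24.14 and 37.60 FPKM in NC and 15.45 and 7.80 FPKM in the knockdown, *MED18* fell from 21.33 and 17.59 to 7.19 and 4.81 FPKM (adjusted p = 0.040, limma), and *MED22* went the other way, from 5.92 and 1.38 to 8.93 and 11.58 FPKM (adjusted p = 0.084, limma), while *MED6*, *MED17* and *MED20* were not called. *CCNC*, which encodes cyclin C of the Mediator kinase module, fell furthest of the Mediator genes outside the members, from 19.47 and 9.97 to 2.49 and 2.26 FPKM. *MED11* lies beside *PELP1*, which had 2.65 and 5.09 FPKM in NC and 1.21 and 0.13 FPKM in the knockdown.

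*ADNP* encodes a homeodomain zinc finger protein that acts on chromatin with the remodeler CHD4 and HP1 proteins and is needed for mouse embryogenesis. Its level was 8.22 and 8.02 FPKM in NC and 0.87 and 0.49 FPKM in the knockdown libraries. In untreated material it was low, at 0.67, 0.76 and 0.66 FPKM in MII oocytes, 0.83, 1.12 and 0.62 in 4-cell and 0.28, 1.04 and 0.76 in 8-cell embryos. The stage ranges overlapped (8-cell against MII, log2 fold change −0.03 ± 0.21 (SE), adjusted p = 0.95, limma without the filter). Its paralog *ADNP2* did not follow it, at 8.27 and 8.86 FPKM in NC, 10.83 and 12.57 in the knockdown and 13.7, 18.1 and 20.2 in untreated 8-cell embryos. Of *ADNP2*, *CHD4*, *CBX1*, *CBX3* and *CBX5*, 0 were called in either direction in the knockdown by limma, and none had an unadjusted p under 0.05. Of all genes tested, 15.3% were called decreased and 9.48% increased, so few calls would fall on this list at that share and nothing is read from the 0. The neighbor of *ADNP*, *DPM1*, a subunit of dolichol-phosphate mannose synthase, fell from 86.5 and 186 to 43.8 and 34.9 FPKM (adjusted p = 0.035, limma) and was well expressed in untreated 8-cell embryos.

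*CCDC12* encodes a coiled-coil protein found in the spliceosome. It had 7.03 and 6.95 FPKM in NC and 0.54 and 0.82 FPKM in the knockdown libraries, the closest NC pair of any member. Its untreated levels lay between 0.12 and 0.69 FPKM in all 9 libraries, with no call between stages. The 3 untreated 8-cell libraries, at 0.48, 0.36 and 0.37 FPKM, were all below both knockdown libraries.

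*MAP3K1* encodes a kinase and ubiquitin ligase that activates the JNK and ERK cascades. It had 8.63 and 7.69 FPKM in NC and 0.85 and 0.34 FPKM in the knockdown libraries. The untreated libraries ranged from 0.02 to 0.38 FPKM, and 8-cell libraries had 0.06, 0.10 and 0.11 FPKM. Of 7 other MAP3 kinase genes tested 0 were called in either direction by limma, with 0 at an unadjusted p under 0.05, where 15.3% of all genes tested were called decreased and 9.48% increased. Their median log2 fold change was 0.53, against 0.01 over all genes tested. *MAP3K4* had 5.36 and 2.87 FPKM in NC and 8.93 and 7.73 FPKM in the knockdown (adjusted p = 0.18, limma), and *MAP3K7* had 10.44 and 13.28 FPKM in NC and 6.24 and 7.59 FPKM in the knockdown (adjusted p = 0.28, limma). Of the JNK pathway genes *MAP2K4*, *MAPK8*, *MAPK9* and *MAPK10*, 0 were called by limma, and 0 had an unadjusted p under 0.05. *SETD9*, next to *MAP3K1* in the genome, had 14.44 and 11.75 FPKM in NC and 25.15 and 46.61 FPKM in the knockdown, and passed the calling rule as increased (adjusted p = 0.072, limma).

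*TMEM17* encodes a membrane protein of the ciliary transition zone, the gate at the base of the cilium. It had 6.13 and 7.75 FPKM in NC and 0.83 and 0.30 FPKM in the knockdown libraries. All 9 untreated libraries were between 0.02 and 0.22 FPKM. Of 9 other transition zone genes tested, 1 was called decreased (*TCTN3*, 4.13 and 4.09 against 1.04 and 2.19 FPKM) and 2 increased (*B9D1* and *TCTN1*), none with an adjusted p under 0.05 by limma, beside 15.3% and 9.48% of all genes tested.

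*SEPP1* encodes selenoprotein P, the secreted protein that carries selenium in plasma. It had 11.45 and 7.65 FPKM in NC and 0.39 and 0.25 FPKM in the knockdown libraries. Among untreated libraries 4-cell replicate 2 stood out, at 4.07 FPKM, while the other 4-cell libraries had 0.67 and 0 FPKM and the 8-cell libraries 0.07, 0.22 and 0 FPKM. *CCDC152*, a coiled-coil gene next to *SEPP1* in the genome, is a member as well, with 12.06 and 6.76 FPKM in NC and 0.12 and 0.78 FPKM in the knockdown libraries. Both genes were higher in NC replicate 1, but *CCDC152* did not share the value of *SEPP1* in 4-cell replicate 2, where it had 0.76 FPKM. Since strand was not stated for the counting, reads of neighbors that overlap could not be told apart. Of 8 other genes of selenoprotein synthesis or selenoproteins tested in the knockdown, 4 were called decreased (*PSTK*, *SEPHS1*, *SEPHS2* and *TXNRD1*), *PSTK* with an adjusted p under 0.05 (0.035, limma), and 0 increased, where 15.3% and 9.48% of all genes tested were called and 5.92% were decreased by adjusted p. *PSTK*, the kinase that prepares the tRNA for selenocysteine, had 2.98 and 2.03 FPKM in NC and 0.40 and 0 FPKM in the knockdown. Only its NC values brought it to the mean of 1 FPKM needed for a test, so its call carries no weight.

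*HEBP1* encodes a heme-binding protein whose cleaved peptide attracts monocytes. It had 5.46 and 9.04 FPKM in NC and 0.87 and 0.64 FPKM in the knockdown libraries. It was listed at 0 in 8 of 9 untreated libraries and at 0.08 FPKM in MII replicate 3. All 4- and 8-cell libraries without treatment were thus below the knockdown, where some signal remained.

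*HSPB3* encodes a small heat shock protein best known from muscle and nerve. It was the member with the highest NC mean and the widest NC spread, at 28.72 and 6.62 FPKM, 4.34-fold apart, against 0.17 and 0.47 FPKM in the knockdown. The NC libraries were over 2-fold apart for 5 members, which also include *CTSS*, *AIF1*, *LOC102168533* and *LOC106504012*, and at most 2-fold for 13. Of the names with at least 5 FPKM in both NC libraries, 10.6% were over 2-fold apart. In 6 of the 9 untreated libraries *HSPB3* was listed at 0, and its highest level was 0.11 FPKM in 4-cell replicate 2. Of 4 other small heat shock genes tested (*HSPB1*, *HSPB6*, *HSPB11* and *CRYAB*), 0 were called by limma, and 0 had an unadjusted p under 0.05. Beside 15.3% of all genes tested called decreased and 9.48% increased, nothing is read from a 0 among so few genes.

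*CTSS* and *AIF1* are genes of macrophages. *CTSS* encodes cathepsin S, the lysosomal protease that trims the invariant chain for antigen presentation, and *AIF1* an actin-binding protein used as a macrophage marker. *CTSS* had 5.88 and 15.03 FPKM in NC and 0 in both knockdown libraries. *AIF1* had 5.19 and 13.10 FPKM in NC and 0 in both knockdown libraries. They were 2.56- and 2.52-fold higher in NC replicate 2, as were 5 members in all in direction, while 13 were higher in NC replicate 1; of the names with at least 5 FPKM in both NC libraries, 41.5% were higher in replicate 2. In untreated embryos *CTSS* was at most 0.16 FPKM, and *AIF1* was at 0 except for 0.05 FPKM in 4-cell replicate 1. *HORMAD1*, a gene of the meiotic chromosome axis that lies beside *CTSS*, had 22.81 and 52.83 FPKM in NC and 10.51 and 5.93 FPKM in the knockdown (adjusted p = 0.025, limma), and it had 0.39, 0.48 and 0.03 FPKM in untreated 8-cell embryos. A link between its levels and those of *CTSS* was not tested. Of 12 neighbors of members that are no members themselves, 4 (*PELP1*, *CXCL16*, *DPM1* and *HORMAD1*) had both NC libraries above both knockdown libraries, beside 19.4% of all names, including names at 0 in NC. Another 6 had both below, a direction for which no share over all names was taken, so nothing is read from these counts.

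Most of the other macrophage genes listed moved with them. Of 16 other macrophage genes listed, 12 had both NC libraries above both knockdown libraries, against 19.4% of all 27121 names. That share includes names at 0 in both NC libraries, which cannot meet the condition, so it is lower than among expressed names. In NC replicate 2, 14 of the 16 were higher, against 37.2% of the 19271 names above 0 in either NC library. Their summed level was 38.9 and 172 FPKM in NC, 24.8 and 22.4 FPKM in the knockdown, and 18.2, 19.5 and 24.5 FPKM in untreated 8-cell embryos. Of 11 tested, 8 were called decreased and 7 of these had an adjusted p under 0.05 (limma), beside 15.3% and 5.92% of all genes tested, with a median log2 fold change of −1.68 against 0.01 over all genes tested. *C1QA*, *C1QC*, *CD53*, *CD68*, *CD74*, *FCER1G* and *TYROBP* reached the mean of 1 FPKM needed for a test only through their NC values. This favors calls of a decrease, so neither the count nor the p-values of these genes carry weight.

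*FCER1G*, the Fc receptor gamma chain, had 4.75 and 20.54 FPKM in NC and 0 in both knockdown libraries (adjusted p = 0.0039, limma). *CD74*, the invariant chain itself, had 2.26 and 6.36 FPKM against 0.07 and 0 (adjusted p = 0.013, limma). The complement genes *C1QA*, *C1QB* and *C1QC* had 0.60 to 4.05 FPKM in the NC libraries and 0 in the knockdown libraries. *SPP1*, a secreted phosphoprotein that embryos express too, had 8.33 and 96.04 FPKM against 1.21 and 3.11 FPKM and makes up most of the sum in NC replicate 2. *LAPTM5*, *MRC1*, *PTPRC* and *CORO1A* did not follow. *PTPRC*, the pan-leukocyte marker CD45, had 0.58 and 0.40 FPKM in NC and 0.54 and 0.65 FPKM in the knockdown, and *CORO1A* had 0.05 and 0.89 against 0.10 and 0 FPKM. *CSF1R* was not called (adjusted p = 0.27, limma), at 1.80 and 1.96 FPKM in NC, 1.11 and 0.52 in the knockdown and 2.59 in untreated 8-cell replicate 1. *CD163*, *CYBB* and *CYBA* were not listed. The list was set up after the members were known, and the part of such cells in the levels of *CTSS* and *AIF1* was not tested. Without these genes 16 members remain, of which 14 are listed for untreated embryos and 12 are below 1 FPKM at the 8-cell stage.

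**Figure D4:**
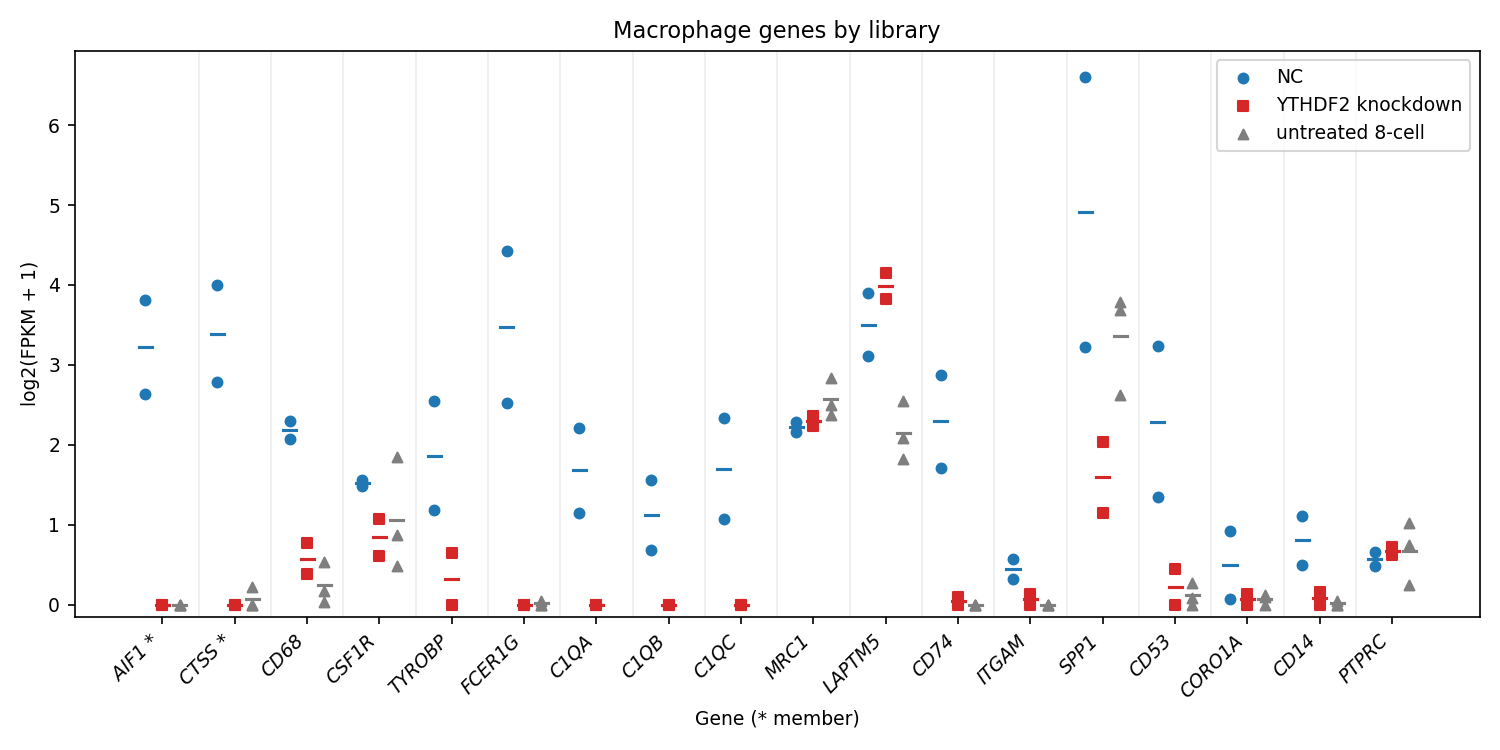
Levels of 18 macrophage genes as log2(FPKM + 1) in NC (circles), *YTHDF2* knockdown (squares) and untreated 8-cell (triangles) libraries; each point is 1 library, each bar a mean, and genes without triangles are not listed for untreated embryos. *AIF1*, *CTSS*, *FCER1G*, *CD74* and the C1Q genes are at or near 0 outside the NC libraries, whereas *LAPTM5*, *MRC1* and *PTPRC* are not.

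Among the other cysteine cathepsins, *CTSK*, the collagen-degrading cathepsin of osteoclasts, had 4.06 and 1.58 FPKM in NC and 0 in both knockdown libraries (adjusted p = 0.022, limma). It reached the mean of 1 FPKM needed for a test only through its NC values, so its call carries no weight. *CTSL* fell from 16.29 and 22.96 to 4.57 and 5.45 FPKM (adjusted p = 0.025, limma) and *CTSV* from 449 and 398 to 157 and 120 FPKM (adjusted p = 0.022, limma). *CTSB* rose from 33.2 and 62.7 to 121 and 139 FPKM (adjusted p = 0.045, limma). In all, 3 of 7 tested genes of the family were called decreased and 1 increased, beside 15.3% and 9.48% of all genes tested.

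Members known by a locus name have no function assigned here. *LOC106504012* had 21.36 and 9.17 FPKM in NC and 0 in both knockdown libraries, and of the untreated tables is listed for MII alone, at 0.04, 0 and 0 FPKM. *LOC102168533* had 18.38 and 7.90 FPKM in NC and 0.73 and 0 FPKM in the knockdown. It is the member with the highest single untreated value, 8.12 FPKM in MII replicate 2, against 0.54 and 0.71 FPKM in the other MII libraries and 0.08 to 0.56 FPKM in 4- and 8-cell embryos. From MII to the 8-cell stage it differed by −1.10 ± 0.59 (SE) on the log2 scale (adjusted p = 0.17, limma), and without MII replicate 2 it did not reach the level needed for a test.

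*LOC102171580* had 6.48 and 6.37 FPKM in NC and 0.80 and 0.05 FPKM in the knockdown. Its untreated levels were 0 to 0.14 FPKM in MII oocytes, 0 to 0.27 FPKM in 4-cell embryos and 0.26, 0.93 and 3.71 FPKM in 8-cell embryos. The 8-cell mean was 1.63 FPKM ± 1.83 (SD, n = 3), so 1 library carried most of it. Without the filter on low values it passed the calling rule from MII to the 8-cell stage (log2 fold change 1.11 ± 0.41 (SE), adjusted p = 0.10, limma), as 10.5% of names did in this direction, and from the 4- to the 8-cell stage (1.01 ± 0.41 (SE), adjusted p = 0.25, limma), as 2.43% did. In a fit of the 6 untreated embryo libraries alone, also without the filter, the change from the 4- to the 8-cell stage was not called (1.01 ± 0.48 (SE), unadjusted p = 0.078, adjusted p = 0.44, limma). In the fit of all 9 untreated libraries, without 8-cell replicate 3 the changes from MII and from the 4-cell stage were 0.57 and 0.48, under the 2-fold limit, and without 8-cell replicate 1, the library that stood apart, they were 1.53 (adjusted p = 0.016, limma) and 1.43 (adjusted p = 0.068, limma).

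The lncRNA *LOC108637310* had the highest mean of any member in untreated 8-cell embryos, with 2.33, 6.51 and 3.60 FPKM, against 0.82, 1.03 and 1.81 FPKM in 4-cell embryos. Its NC level was 8.36 and 7.07 FPKM and its knockdown level 0.76 and 0.28 FPKM, below all 6 untreated libraries. In a fit of the 6 untreated embryo libraries it passed the calling rule as increased from the 4- to the 8-cell stage (log2 fold change 1.16 ± 0.38 (SE), adjusted p = 0.13, limma), as 5.13% of names did. The change was 0.84 without 8-cell replicate 2 (adjusted p = 0.22, limma), 1.195 without 8-cell replicate 3 (adjusted p = 0.26, limma) and 1.43 without 8-cell replicate 1 (adjusted p = 0.049, limma). It overlaps *TDRD3*, which had 6.23 and 5.33 FPKM in NC, 8.95 and 8.00 in the knockdown and 19.8, 17.9 and 18.2 in untreated 8-cell embryos, so the level of the lncRNA did not follow that of the gene it overlaps. Reads of overlapping genes cannot be told apart where strand is not used.

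The lncRNA *LOC102183395* had 5.99 and 5.70 FPKM in NC, 0.70 and 0.51 FPKM in the knockdown, 0.25 to 0.48 FPKM in untreated 4-cell and 0.15, 0.87 and 0.18 FPKM in 8-cell embryos. It overlaps *CFAP70*, which was at 0.53 and 0.47 FPKM in NC and 1.13 and 1.09 FPKM in the knockdown. The lncRNA *LOC108637120* had 11.05 and 6.67 FPKM in NC and 0.79 and 0.32 FPKM in the knockdown and is in none of the untreated tables. Together with *LOC106504012* it is 1 of 2 members not listed for untreated embryos, as were 0.756% of the other names with at least 5 FPKM in NC.

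On 17 lists of pathways, from mRNA decay to growth factor signaling, and 6 lists of cell type markers, 0 of the 18 members were found. The lists together held 10.1% of the 5706 names with at least 5 FPKM in both NC libraries, so that few of 18 names would be on them at that share, and nothing is read from the 0. In the lists closest to the functions above, the knockdown called 5 of 54 genes of growth factor signaling decreased and 3 increased, 2 and 11 of 63 genes of cilia and centrosome, 6 and 9 of 102 genes of chromatin modification, 2 and 2 of 35 genes of the p53 and cell stress response, and 7 and 0 of 25 genes of RNA polymerases. Ribosome biogenesis had 35 of 74 genes called decreased and 0 increased (median log2 fold change −0.97), tRNA and rRNA modification 14 of 44 and 0, and tRNA synthetases 5 and 2 of 32. Shares of all genes tested were 15.3% and 9.48%. Of the marker lists, the cumulus and granulosa genes summed to 67.3 and 60 FPKM in NC and 104 and 111 FPKM in the knockdown, sperm genes to 22.1 and 12.7 against 27.2 and 5.13 FPKM, and trophectoderm genes to 166 and 229 against 169 and 131 FPKM. The 5 listed genes of blood and immune cells summed to 2.54 and 2.83 FPKM in NC and 2.55 and 1.23 FPKM in the knockdown, and 0 of them reached the level needed for a test. Oocyte markers, by contrast, had 6 of 11 genes called increased and 0 decreased in the knockdown, *ZP2* (adjusted p = 0.060, limma) and *ZP3* (adjusted p = 0.072, limma) of the zona pellucida among them, and genes of embryonic genome activation had 1 of 11 called decreased. The part of these lists in the levels of the members was not tested.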

How the data were processed

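Embryos were lysed in pools and cDNA was made by Smart-seq2. The authors used HISAT2 for alignment to the goat assembly ARS1, discarded reads without a unique position, and turned HTSeq counts into FPKM per library; the deposited tables hold these FPKM values, rounded to 2 decimals for injected libraries. Strand of the counting is not given in the sources used here. Every column of values was used.

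Repeated names were dropped. FPKM values entered limma 3.58.1 (R 4.3.3, eBayes with trend) as log2(FPKM + 1) for genes averaging 1 FPKM or more, the 9 untreated libraries in one fit and the 4 injected in another; calls need an unadjusted p under 0.05 and over 2-fold. All adjusted p are Benjamini-Hochberg values of limma over all genes of the fit. Whole fragments were recovered with a tolerance of 0.02. Scripts used Python 3.11.15 and were tested on simulated data. Biotypes and neighbors come from RefSeq for a later release of the assembly (ARS1.2), whose positions served to find adjacent and overlapping genes and are not printed.

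The members and lists were chosen with earlier results of these data known, and partners and neighbors after the members were known. Named are the members with symbols by level at each stage, those nearest each limit, and *YTHDF2*; locus names, partners and neighbors were added after their values were seen. One name just outside a limit is not reported here. Alternatives were other pseudocounts, filters, scalings, adjusted p, a replicate block, other limits, and leaving out each library; the crossed block and leaving out *AIF1* and *CTSS* were added after seeing the data.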

Additional observations from a re-analysis of the deposited data

How the results depend on the processing

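The direction of the untreated comparison held under all alternatives run: of the members listed for untreated 8-cell embryos, 14 were below 1 FPKM, 15 by the median of 3 libraries, 13 at a limit of 0.5 FPKM, 14 after rescaling all 13 libraries, and 14 to 15 with 1 library of the stage left out. The number of members depends on the limits. It was 0 at 10 FPKM in both NC libraries, 6 below 0.5 FPKM in both knockdown libraries (12 were lost), 55 where group means meet the limits, 20 with no names left out, and 31 to 78 without 1 of the 4 libraries: 42 without NC replicate 1, 60 without NC replicate 2, 78 without knockdown replicate 1 and 31 without knockdown replicate 2. Median-ratio rescaling gave 18, of which 16 were the same genes, without *AIF1* and *HEBP1*. Genes decreased in the knockdown numbered 1685, 651 by adjusted p, 1114 at a mean of at least 5 FPKM, and 1134 to 2085 without 1 library, where 1 group is left with a single library that is assumed to vary like the other group.

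For the 6 counts of members changed between stages, all 0 in the main fit with 1 member tested, the values that differed were 1 member increased at the 8-cell stage against MII and against the 4-cell stage without the filter (*LOC102171580*, 13 tested), 1 increased against the 4-cell stage in the 6 embryo libraries (*LOC108637310*), and 1 decreased at the 8-cell stage against MII under median-ratio rescaling and under quantile normalization (*LOC102168533*, adjusted p = 0.11 and 0.092, limma). Leaving out 1 library gave 0 to 1 for that last count, with 1 without MII replicate 1 or 3, and 0 for the others. These calls of *LOC102168533* carry no weight, since it passed the filter only through MII replicate 2, where it was high. With a mean of at least 5 FPKM no member was tested.

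Correlations of deviations between same-numbered libraries were of mixed sign, −0.152 for injected and −0.508 to 0.201 for untreated libraries. They do not settle whether libraries of 1 number belong together, and no pairing was used in the main fits. The replicate block gave 1674 decreased genes in the knockdown and 0 members in each stage count, and the crossed pairing gave 1747. Depth limits the low levels: a member at 0 in the untreated tables may be present under the level of a few fragments.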

Other observations

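The mirror image of the rule was met by 2 names. *CCDC172* had 0.91 and 0.99 FPKM in NC and 5.53 and 5.37 FPKM in the knockdown libraries. In untreated material it had 14.3, 12.6 and 14.2 FPKM in MII oocytes and 3.52, 4.83 and 4.34 FPKM in 8-cell embryos, so its untreated 8-cell level was nearer to the knockdown than to NC. *LOC102174479* had 0.46 and 0.43 FPKM in NC, 16.33 and 11.87 FPKM in the knockdown and 3.79, 5.14 and 4.26 FPKM in untreated 8-cell embryos. It was at most 0.03 FPKM in MII oocytes. No test was made across the experiments.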
